A study of Homo sapiens with 4 samples.

Results

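MYB, MYC, SOX4, MEF2C, ZNF521, IKZF2, LMO2, GFI1, RUNX1 and DACH1 are transcription factors or cofactors of blood stem and progenitor cells that recur in leukemia, and their transcripts were followed in THP1 cells after silencing of MLL-AF9. A gene was measured by every probe that carried its name, was no control probe and had a quality weight above 0 on all 4 arrays. All 10 genes had such a probe, in total 19 probes on 37 spots, out of 26219 probes with 19755 gene names. THP1 is an acute myeloid leukemia line of the monocytic subtype M5 that carries MLL-AF9, the fusion of MLL with AF9 (gene MLLT3). The knockdown group consisted of cells treated with siRNA-A or siRNA-B against MLL-AF9, and the control group of cells treated with non-targeting control siRNA-1 or control siRNA-2. All cells were transfected on days 0, 3 and 6, kept in 10% FCS up to day 6 and in 0.5% FCS thereafter, and harvested on day 8. Each array held RNA pooled from 5 experiments, so that each group had 2 arrays, 1 for each siRNA, and the spread within a group includes the difference between its siRNAs. The 4 arrays shared 1 slide, where position on the slide and treatment cannot be told apart.

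The factors share a place at the top of hematopoiesis and differ in how they work. MYB and MYC drive proliferation of progenitors and are switched down as cells mature, and RUNX1 is required for the emergence of blood stem cells. LMO2 binds no DNA itself and bridges SCL/TAL1, GATA factors and LDB1, whereas GFI1 is a zinc finger repressor that recruits histone demethylase and deacetylase complexes. SOX4, MEF2C, ZNF521, IKZF2 and DACH1 are active in stem cells, early progenitors or lymphoid precursors, and several of them are known for high levels in leukemia with rearranged MLL.

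Values are log2 of the deposited spot intensity, averaged over identical spots of a probe, and a difference is the mean of the knockdown arrays minus the mean of the control arrays. No normalization between arrays was applied, as in the study's methods. The median log2 intensity was 8.56 with siRNA-A, 8.62 with siRNA-B, 8.58 with control siRNA-1 and 8.65 with control siRNA-2. Differences between arrays therefore include any array-wide offset. A probe was called at an unadjusted two-sided p under 0.005 in limma, and adjusted p are Benjamini-Hochberg values over all 26219 probes. With 2 arrays against 2 the smallest p of an exact permutation test is 0.333. The limma p rests on variance information shared between probes. The number of arrays limits the precision. Since RNA came from whole cultures, fewer cells of a type and less RNA per cell cannot be told apart.

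The parts of the silenced fusion were examined first. The MLLT3 probe A_23_P216693 had a log2 intensity of 6.82 with siRNA-A, 6.87 with siRNA-B, 7.59 with control siRNA-1 and 7.61 with control siRNA-2. Both knockdown arrays were lower than both control arrays, with 59.2% of the control level (difference -0.76, standard error 0.11, adjusted p = 0.0639 in limma). The other MLLT3 probe, A_24_P192627, read 6.44 and 6.55 after siRNA-A and siRNA-B and 7.02 and 7.24 in the controls, and it was called as well (-0.63, adjusted p = 0.182 in limma). Leaving out any single array ended this call (-0.74 to -0.52), as did background subtraction (-0.83 scaled, -0.86 unscaled). Of 4 MLL probes, A_33_P3390570, the one nearest the start of the transcript, read 10.55, 10.64, 10.95 and 11.08 in the same order of arrays, with no overlap between the groups and no call (-0.41, 95% confidence interval -0.67 to -0.15). It passed the threshold in 4 of 12 alternative settings, after quantile, loess and normexp normalization (-0.38, -0.38 and -0.40) and when dim probes were removed (-0.41). The knockdown and control arrays overlapped in the other MLL probes, with differences of -0.08, -0.03 and 0.05. A_24_P136402 among them was well above background on 1 of 2 knockdown arrays. A probe for MLL or MLLT3 detects the transcript of the wildtype gene as well as any fusion transcript that holds its target. The direction of the last 3 MLL probes turned in at least 1 setting.

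SOX4, an SRY-related HMG box factor that promotes self-renewal of progenitors, had a log2 intensity of 7.64 with siRNA-A, 8.02 with siRNA-B, 8.75 with control siRNA-1 and 8.59 with control siRNA-2. The groups did not overlap, and SOX4 was lowest with siRNA-A. The knockdown level was 55.9% of the control level (difference -0.84, standard error 0.15, adjusted p = 0.133 in limma), the largest fall among the 19 probes. The probe A_24_P911676 lies on chromosome 6 at 21598001 to 21598060 of hg19, the build of all probe positions given here. Leaving out siRNA-A (-0.65), control siRNA-1 (-0.76) or control siRNA-2 (-0.92) ended the call, as did the scaled signal after background subtraction (-0.93).

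ZNF521, a zinc finger cofactor of immature hematopoietic cells that is switched off during differentiation, was measured by 2 probes. A_23_P159027, on chromosome 18 at 22641994 to 22642053, read 10.79 with siRNA-A, 10.92 with siRNA-B, 11.57 with control siRNA-1 and 11.60 with control siRNA-2. Both knockdown arrays were lower, the control arrays differed by -0.03 and the knockdown arrays by -0.13. Of the 19 probes it had the smallest p, with 60.3% of the control level (-0.73, standard error 0.11, adjusted p = 0.0847 in limma). A_33_P3219398 lies in the coding part of the transcript, at chr18:22804393-22804452 on the minus strand, and read 8.78, 9.18, 9.68 and 9.70 in the same order. It was called too, with 61.2% of the control level (-0.71, standard error 0.14, adjusted p = 0.214). The ZNF521 probes, which lie in different parts of the gene, were thus both lower on both knockdown arrays. The former lost its call only when either control array was left out (-0.74 and -0.71). The latter lost its call in both of those cases (-0.72 and -0.69), when siRNA-A was left out (-0.51) and after background subtraction (-0.73 scaled, -0.76 unscaled).

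DACH1, a SKI-related nuclear factor that works with EYA proteins, was also covered by 2 probes. A_23_P32577, on chromosome 13 at 72012375 to 72012434, read 10.94 with siRNA-A, 11.29 with siRNA-B, 11.56 with control siRNA-1 and 11.87 with control siRNA-2. A_33_P3316786 lies in the coding part, at chr13:72049839-72049898 on the minus strand, and read 12.66, 12.86, 13.18 and 13.43. In each probe the groups did not overlap, but the control arrays lay 0.31 and 0.25 apart, with control siRNA-2 higher. The DACH1 differences were -0.60 (standard error 0.16, adjusted p = 0.359) and -0.54 (standard error 0.13, adjusted p = 0.303 in limma). Leaving out any single array (-0.77 to -0.42 and -0.67 to -0.42) or subtracting the background (-0.50 and -0.45 scaled, -0.54 and -0.48 unscaled) ended both calls, and that of A_23_P32577 was also lost after quantile normalization (-0.56).

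IKZF2 encodes Helios, an Ikaros family zinc finger factor of stem cells and regulatory T cells, and its 3 probes gave unequal results. A_32_P114284, on chromosome 2 at 213864536 to 213864595, read 7.65 with siRNA-A, 7.93 with siRNA-B, 8.34 with control siRNA-1 and 8.42 with control siRNA-2. Knockdown arrays were again below control arrays, with 66.2% of the control level (-0.60, standard error 0.13, adjusted p = 0.229 in limma). A_33_P3328485, nearer the start of the transcript, was dim and read 5.91 on either knockdown array, 6.26 and 6.02 in the controls. It was not called (-0.23, 95% confidence interval -0.51 to 0.04). A_33_P3842551 exceeded background clearly on 0 knockdown and 2 control arrays, so no fold is given. It read 5.21 with siRNA-A, 5.39 with siRNA-B and 5.43 on either control array. This probe was not called (95% confidence interval of the difference -0.39 to 0.14). Leaving out siRNA-A (-0.46), control siRNA-1 (-0.63) or control siRNA-2 (-0.56) ended the call of A_32_P114284, as did unscaled background subtraction (-0.73).

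MEF2C, a MADS box factor of lymphoid and myeloid progenitors, read 9.94 with siRNA-A, 10.47 with siRNA-B, 10.73 with control siRNA-1 and 10.88 with control siRNA-2 on its only probe, A_23_P320739, on chromosome 5 at 88016817 to 88016876. The groups did not overlap, and siRNA-A lay 0.53 below siRNA-B, the widest gap between the knockdown arrays among the 19 probes. MEF2C missed the threshold (-0.60, 95% confidence interval -0.99 to -0.21, adjusted p = 0.414 in limma). It passed without siRNA-B (-0.87), when dim probes were left out before the fit (-0.60) and in a fit on single spots with the criteria of the study's methods. Without siRNA-A the MEF2C difference was -0.34.

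**Figure D1:**
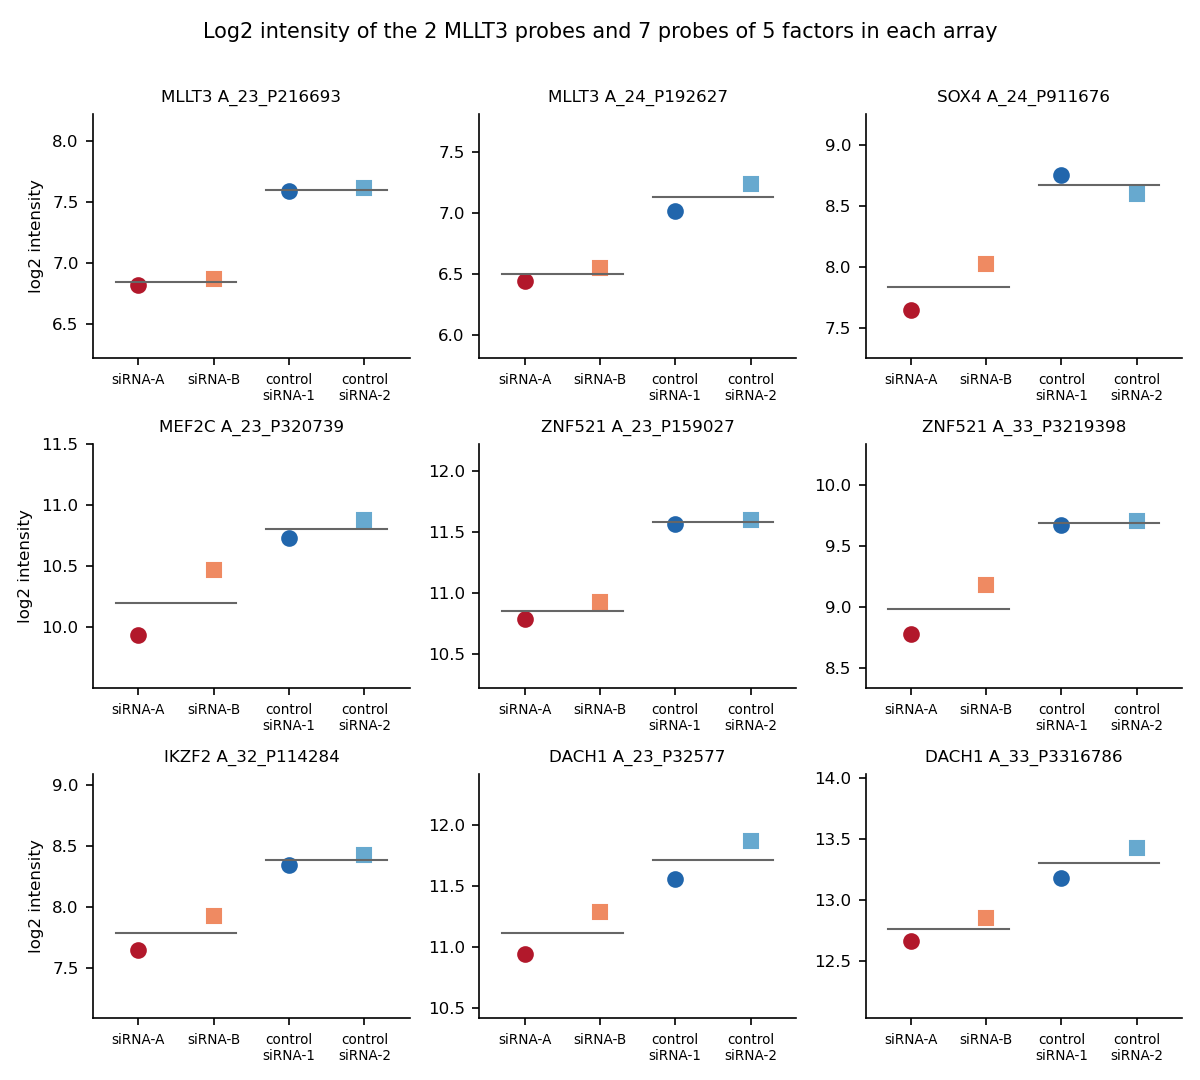
Log2 intensity (y axis, each panel spans 2 log2 units) of the 2 MLLT3 probes and of 7 probes of SOX4, MEF2C, ZNF521, IKZF2 and DACH1 on each array (x axis), from siRNA-A and siRNA-B at left to the controls at right, with 1 point per array and a grey line at each group's mean. In all 9 panels the knockdown points lie under the control points.

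The remaining genes gave no called probe. MYB, the progenitor factor on which many leukemias depend, read 16.56 with siRNA-A, 16.63 with siRNA-B, 16.58 with control siRNA-1 and 16.65 with control siRNA-2 on A_23_P31073. The MYB arrays were intermixed, and the difference was -0.02 (95% confidence interval -0.27 to 0.23). Its direction turned with the scaled background-subtracted signal (0.02), after quantile (0.10), loess (0.08) and normexp with quantile normalization (0.08), and when siRNA-A (0.01) or control siRNA-2 (0.02) was left out. The other MYB probe, A_33_P3311795, read 8.54, 8.57, 8.54 and 8.55 (0.00, -0.24 to 0.25), and turned without siRNA-B (-0.01) and without control siRNA-1 (just below 0).

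MYC, the basic helix-loop-helix factor of growth and ribosome synthesis, was printed on 10 identical spots of A_23_P215956. Its mean log2 intensity was 13.43 with siRNA-A, 13.39 with siRNA-B, 13.20 with control siRNA-1 and 13.58 with control siRNA-2. Both knockdown arrays lay between the control arrays, which differed by -0.38, and control siRNA-1 was below control siRNA-2 on 10 of 10 spots. The MYC difference was 0.02 (95% confidence interval -0.31 to 0.34), and over single spots it ranged from -0.13 to 0.18. Without control siRNA-1 it was -0.18, without control siRNA-2 0.21 and without siRNA-A 0.00, just below 0. Identical spots of an array share its RNA and are not replicates of the treatment.

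LMO2, the bridging cofactor, was likewise printed on 10 spots of A_23_P53126. It read 14.09 with siRNA-A, 14.51 with siRNA-B, 14.39 with control siRNA-1 and 14.30 with control siRNA-2. On 10 of 10 spots siRNA-A was below both controls, and on 10 of 10 spots siRNA-B was above both. The mean difference of -0.04 (95% confidence interval -0.39 to 0.30) thus averages over knockdown arrays that lay on opposite sides of the controls, -0.26 and 0.17 from the control mean. Whether the siRNAs differed was not tested, since each has 1 array. Its sign turned after quantile (0.04), loess (0.03) and normexp with quantile normalization (0.03) and without siRNA-A (0.17).

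**Figure D2:**
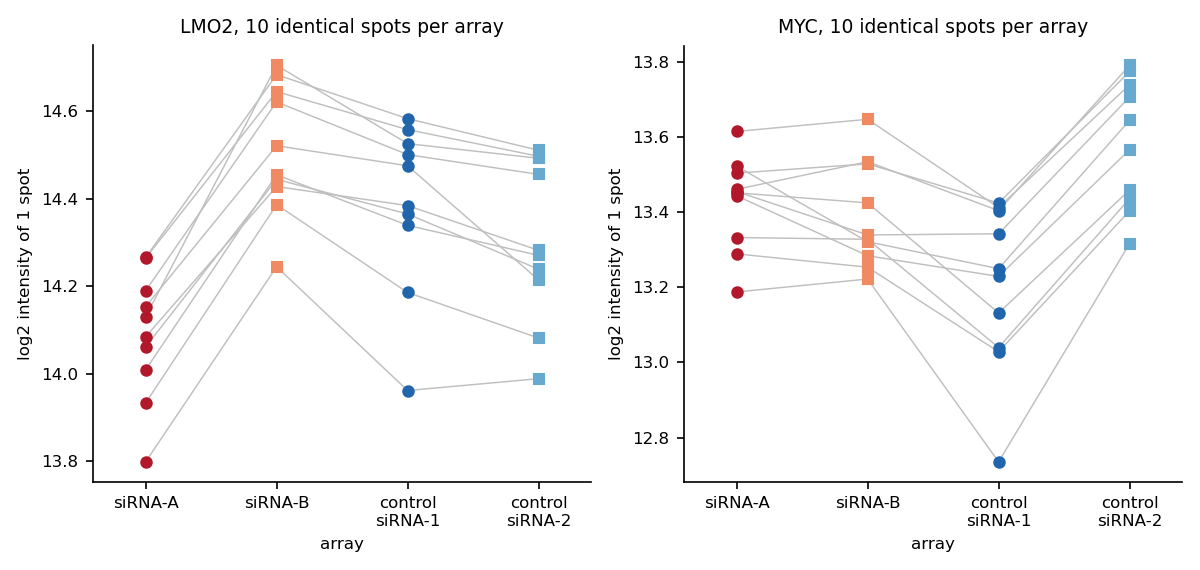
Log2 intensity (y axis) of the 10 identical spots of LMO2 (left) and MYC (right) in each of the 4 arrays (x axis), where a grey line joins the values of 1 spot position across arrays. LMO2 spots are lowest with siRNA-A and highest with siRNA-B at all 10 positions, and MYC spots are higher with control siRNA-2 than with control siRNA-1 at all 10.

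GFI1, the repressor that restrains stem cell cycling, read 12.69 with siRNA-A, 12.93 with siRNA-B, 12.90 with control siRNA-1 and 12.95 with control siRNA-2. Only siRNA-A lay below both controls, and the difference was -0.11 (95% confidence interval -0.39 to 0.17), or 0.00 without siRNA-A. RUNX1, the DNA-binding core of CBF, was covered by 5 probes with differences of -0.20 to 0.08 and 0 calls. A_33_P3211818, on chromosome 21 at 36171601 to 36171660, read 7.92 on either knockdown array, 8.14 with control siRNA-1 and 8.11 with control siRNA-2 (-0.20, -0.45 to 0.04). A_33_P3211809, in the coding part for the DNA-binding Runt domain at chr21:36231787-36231846 on the minus strand, read 9.23 and 9.24 after knockdown and 9.15 and 9.17 in controls (0.08, -0.17 to 0.32). The groups of these 2 RUNX1 probes did not overlap, in opposite directions, and those of the other 3 did. A_24_P34155 read 10.00 with siRNA-A, 10.34 with siRNA-B, 10.21 with control siRNA-1 and 10.22 with control siRNA-2 (-0.04, -0.35 to 0.27), again with the siRNAs on either side of the controls. The sign of the 3 overlapping RUNX1 probes turned in at least 1 setting.

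Coding probes of ZNF521 and DACH1, with a called fall, and of RUNX1, with no call, are shown for contrast, and their 60-base sequences are given 5′ to 3′ with CG dinucleotides in capitals. Their GC contents are 45%, 43.3% and 53.3%.
ZNF521 A_33_P3219398: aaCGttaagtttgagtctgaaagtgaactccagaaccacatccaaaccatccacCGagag
DACH1 A_33_P3316786: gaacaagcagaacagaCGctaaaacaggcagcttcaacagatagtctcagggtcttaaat
RUNX1 A_33_P3211809: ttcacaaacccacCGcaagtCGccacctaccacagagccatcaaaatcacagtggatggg

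**Figure D3:**
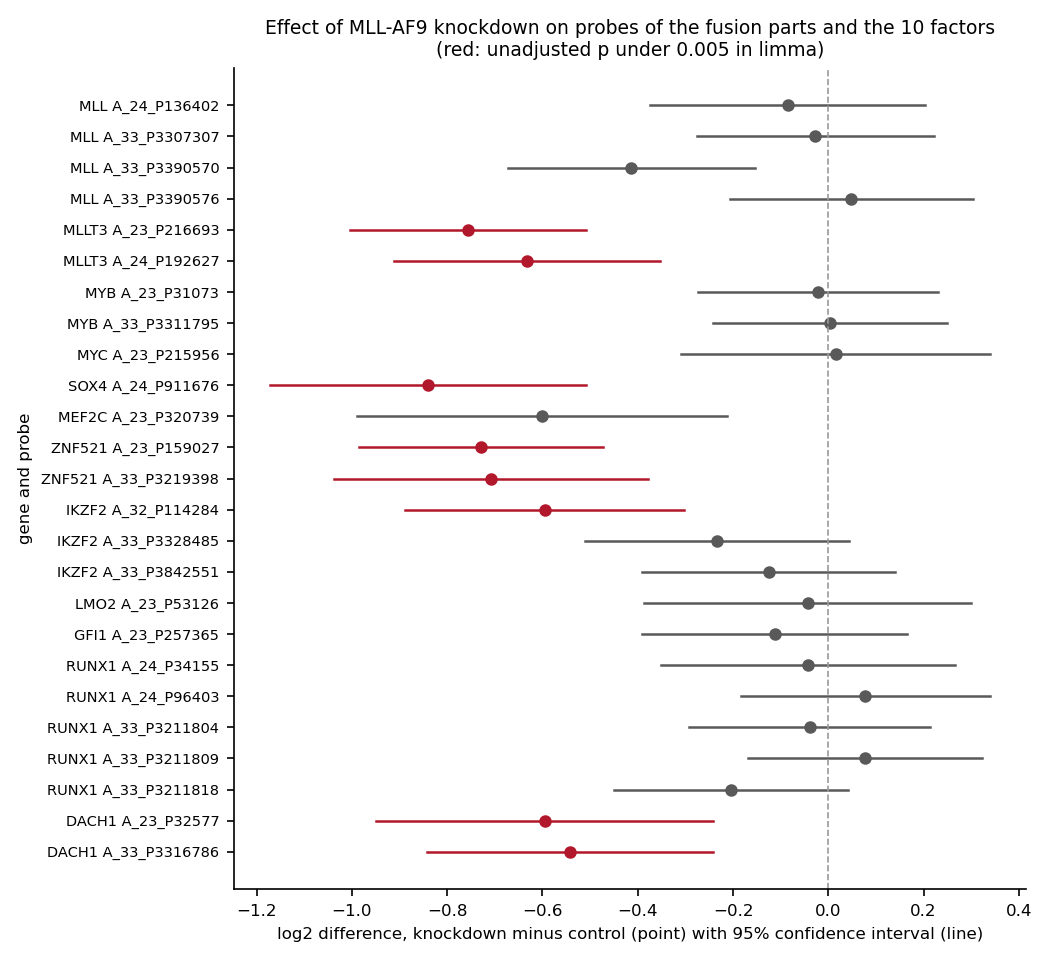
Log2 difference between knockdown and control (x axis, point) with its 95% confidence interval (line) for 6 probes of MLL and MLLT3 and 19 probes of the 10 factors (y axis), in red where the unadjusted p in limma was under 0.005. The intervals of the called ZNF521, SOX4, IKZF2 and DACH1 probes lie below 0, as does that of MEF2C, while those of the other 2 IKZF2 probes and of MYB, MYC, LMO2, GFI1 and RUNX1 span 0.

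Of the 19 probes, 6 were called lower and 0 higher, against 0.732% and 0.584% of all probes. The calls fell on 4 of 10 genes, SOX4, ZNF521, IKZF2 and DACH1, while 0.840% of all gene names had a probe called lower and 0.709% a probe called higher. Since the 10 genes were chosen with such results known, these shares describe the list and test nothing. No probe of the list had an adjusted p under 0.05 in limma, which 0.118% of all probes had, and 7 had an unadjusted p under 0.05, which 8.06% of all probes had. The knockdown arrays were both under the 2 control arrays in 10 probes, compared with 21.4% of all probes, and above them in 1, compared with 15.2%. With each gene given by its brightest probe, the median difference of the 10 genes was -0.33 and that of all 19755 names -0.02. Without siRNA-A it was -0.17. The count of 6 called probes fell to 1 without siRNA-A and to 0 without either control array, in fits that assume that the lone array of a group varies like the others, and to 3 with the background-subtracted signal. Of these 3, scaled or not, 2 were among the 6, and the other was the IKZF2 probe A_33_P3842551, which is not clear of background after knockdown.

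The knockdown arrays were next set against the controls one by one. Relative to the control mean, the median of the 10 genes was -0.45 with siRNA-A and -0.17 with siRNA-B, where that of all gene names was -0.05 and 0.01. The array of siRNA-A was below that of siRNA-B in 16 of the 19 probes and in all 6 called ones, compared with 61.7% of all probes and 60.4% of the 192 probes called lower. SOX4 was at -1.03 with siRNA-A and at -0.65 with siRNA-B. MLLT3 itself was at -0.78 and -0.73 on A_23_P216693, and at -0.69 and -0.58 on A_24_P192627. The MLLT3 probes thus differed between the siRNAs by -0.05 and -0.11, while the called probes of the factors differed by -0.40 to -0.13. With 1 array per siRNA these gaps were not tested.

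**Figure D4:**
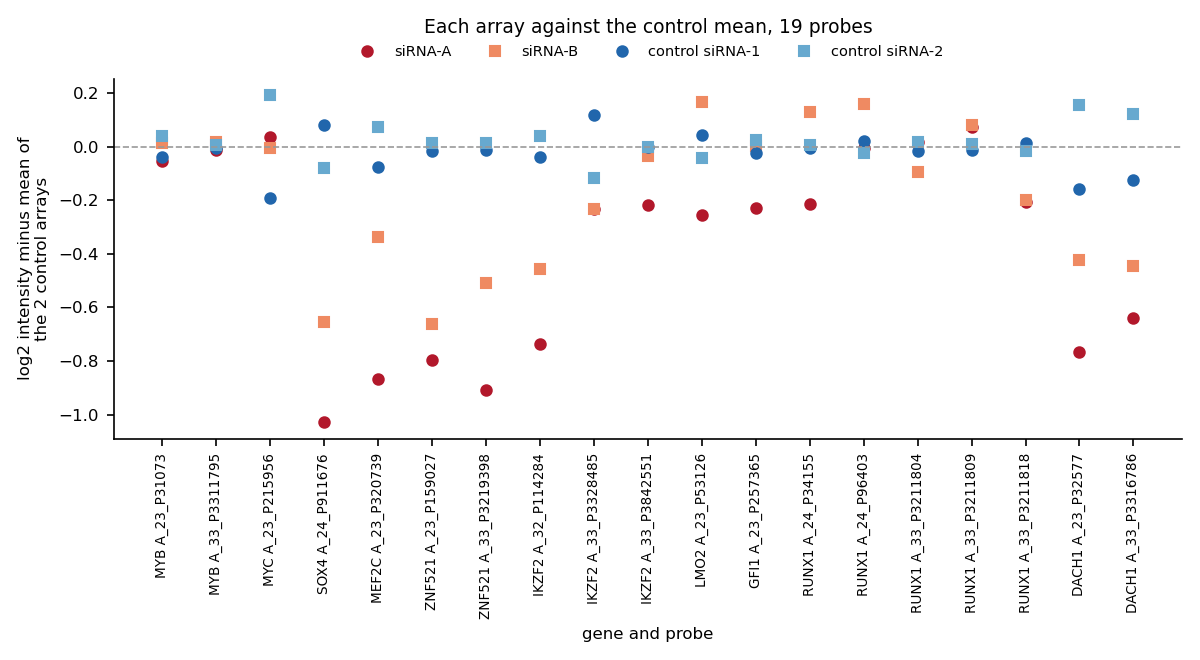
Log2 intensity of each array minus the mean of the control arrays (y axis) for the 19 probes of the 10 factors (x axis), with red circles for siRNA-A, orange squares for siRNA-B, dark blue circles for control siRNA-1 and light blue squares for control siRNA-2. The red circles lie lowest for SOX4 (-1.03), and for LMO2 siRNA-A and siRNA-B fall on opposite sides of 0.

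Signal over background moved with the treatment as well. The share of analysed spots well above background was 92.2% with siRNA-A and 90.6% with siRNA-B, compared with 96.2% and 96.1% in the control arrays. Its part in the differences of dim probes was not tested. For SOX4, the background-subtracted signal was 153 with siRNA-A, 207 with siRNA-B, 360 with control siRNA-1 and 333 with control siRNA-2, with the same order of groups as the intensity.

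The pattern of SOX4 over the 4 arrays was most closely followed, among probes well above background on all arrays, by Euclidean distance of log2 intensities centred on each probe's own mean, by C10orf140 (distance 0.10, difference -0.93), C10orf114 (0.10, -0.78), LOC100128994 (0.12, -0.95), FAM46A (0.13, -0.74) and the homeobox gene HOXC4 (0.15, -0.76). The C10orf140 and C10orf114 probes both lie on chromosome 10, at 21802539 to 21802598 and at 21783426 to 21783485. Over only 4 arrays such likeness is a description.

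RefSeq promoters (GRCh38.p14) were found for 7 of the 10 genes, 16 start sites in all, and MYC, ZNF521 and LMO2 were not among those used. In the 250 bases before each start, 4 motifs of factors from the list were searched on both strands: TGTGGT (RUNX), CACGTG (E-box of MYC), AACNG (MYB) and ACAAAG (SOX). They occur in 11%, 6.34%, 70.6% and 13.7% of 35116 promoter windows of the same length. In the 16 windows TGTGGT was found in 2, CACGTG in 0, AACNG in 12 and ACAAAG in 2. The windows of 3 genes that were called lower together are shown 5′ to 3′ with every match in capitals.
IKZF2, chr2:213152457-213152706, minus strand: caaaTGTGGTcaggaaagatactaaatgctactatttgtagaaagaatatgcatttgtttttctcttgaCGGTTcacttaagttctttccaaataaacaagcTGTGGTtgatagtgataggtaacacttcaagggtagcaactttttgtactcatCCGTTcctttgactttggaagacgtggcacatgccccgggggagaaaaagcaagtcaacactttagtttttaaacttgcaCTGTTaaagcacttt
DACH1, chr13:71867205-71867454, minus strand: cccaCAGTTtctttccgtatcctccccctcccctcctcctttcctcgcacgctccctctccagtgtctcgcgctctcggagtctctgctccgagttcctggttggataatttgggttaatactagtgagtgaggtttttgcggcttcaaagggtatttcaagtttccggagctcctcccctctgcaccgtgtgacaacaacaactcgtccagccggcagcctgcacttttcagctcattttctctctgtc
SOX4, chr6:21593501-21593750, plus strand: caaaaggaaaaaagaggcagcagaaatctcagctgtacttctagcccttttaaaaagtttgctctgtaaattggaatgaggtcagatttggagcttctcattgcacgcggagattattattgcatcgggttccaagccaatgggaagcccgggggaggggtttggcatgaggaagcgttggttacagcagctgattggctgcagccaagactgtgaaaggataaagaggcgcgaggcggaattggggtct
The IKZF2 window holds 2 TGTGGT and 3 AACNG matches, the DACH1 window 1 AACNG match and the SOX4 window no match. The other IKZF2 start had 1 AACNG match. A match of letters is a description and says nothing on binding in THP1 cells.

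Partners and paralogs of the factors were counted next, in lists of related genes. No gene was called in the lists of MYB family and coactivators (0 of 4 measured), MYC network (0 of 9), SOX genes (0 of 6), MEF2 family and class IIa histone deacetylases (0 of 7), Ikaros family and the ZNF521 paralog (0 of 4), LMO2 complex (0 of 12), GFI1 family and corepressors (0 of 6), RUNX and CBF (0 of 3) and the network of DACH and EYA genes with their sine oculis homeobox partners (0 of 6). The ZNF521 paralog ZNF423 was not measured, so the count of its list covers Ikaros family genes only. Also without a measured probe were MYCN, SOX11, TAL1, GATA1, LMO3, RUNX1T1, DACH2, SIX4 and EYA4, and the counts say nothing about them. At an unadjusted p under 0.05 in limma, 5 of the 84 probes of these 9 lists would have passed (5.95%), next to 2112 of all 26219 probes (8.06%). The list medians ranged from -0.04 to 0.05, apart from RUNX and CBF at 0.22, next to -0.02 for all gene names. The partner with the smallest p was MXD4, an antagonist of MYC in binding MAX, at 9.84 and 9.99 after siRNA-A and siRNA-B and 10.40 and 10.21 in the controls (-0.40, adjusted p = 0.464 in limma), while its other probe was at -0.07. MYBL2 (-0.25), SOX13 (0.34), HDAC9 (0.23), IKZF5 (-0.13), the TAL1 relative LYL1 (0.25), GFI1B (0.28), RUNX2 (0.46) and SIX5 (-0.35) had the smallest p of the other lists, and none was called. SIX5 was at 0.00 without siRNA-A. The brightest SOX13 probe was lower on both knockdown arrays (-0.19) and a further one higher (0.24), the brighter HDAC9 probe was at -0.05 and the other IKZF5 probe at 0.03. The HDAC9 probe with the smallest p was clear of background on 1 array of each group. All RUNX2 and RUNX3 probes, 4 in number, were higher on both knockdown arrays than on both control arrays, as were 15.2% of all probes, though the RUNX2 probe A_33_P3316508 stood clear of background on 1 control array and 0 knockdown arrays. The other RUNX2 probe was at 0.19 when siRNA-B was left out and at 0.74 when siRNA-A was.

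Genes that MYC or MYB are known to activate were counted beside the 0.840% of all gene names called lower and the 0.709% called higher. Of 22 measured MYC activated genes, among them nucleolar and translation factors, 0 were called, 0 probes had an unadjusted p under 0.05 in limma, and their median difference was -0.04. NME1, a nucleoside diphosphate kinase, had the smallest p (-0.26, 95% confidence interval -0.53 to 0.00). Of 10 measured MYB activated genes 1 was called, lower, and the median was -0.16. It was ELANE, the neutrophil elastase of granule-forming progenitors, at 16.41 with siRNA-A, 16.33 with siRNA-B, 16.81 with control siRNA-1 and 16.87 with control siRNA-2 (-0.47, standard error 0.11, adjusted p = 0.277 in limma). Its call was lost in 8 of 12 alternative settings, the loss of any single array (-0.51 to -0.43) and background subtraction (-0.38 scaled, -0.41 unscaled) included. Of 12 probes of the MYB activated genes, which include MYC itself, 6 were lower on both knockdown arrays than on both control arrays and 0 higher. For the 32 probes of MYC activated genes these counts were 8 and 2, compared with 21.4% and 15.2% of all probes.

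Among 15 measured stem and progenitor factors outside the 10 genes, 2 had a probe called lower and 1 a probe called higher, next to 0.840% and 0.709% of all gene names. Of the 25 probes in this list, 9 had an unadjusted p under 0.05 in limma, compared with 8.06% of all probes. These lay in both directions, also where not called (-0.33 to 0.36). In the list 10 probes were lower on both knockdown arrays than on both control arrays and 6 higher, compared with 21.4% and 15.2% of all probes. PBX3, a TALE homeobox partner of HOX proteins, read 11.16 with siRNA-A, 11.34 with siRNA-B, 11.71 with control siRNA-1 and 11.82 with control siRNA-2 on A_23_P71821 (-0.51, adjusted p = 0.261 in limma), and its other probe was called too (-0.48). Leaving out any single array (-0.60 to -0.42 and -0.59 to -0.38) or subtracting the background (-0.50 scaled and -0.53 unscaled for the former, -0.53 and -0.56 for the latter) ended both PBX3 calls. HOXA9, the homeobox gene held active by MLL fusions, read 11.14, 11.48, 11.86 and 11.89 (-0.56, adjusted p = 0.294). Background subtraction ended the HOXA9 call (-0.57 scaled, -0.60 unscaled), as did leaving out siRNA-A (-0.39) or either of the controls (-0.58 and -0.55). The other HOXA9 probe was not called (-0.29). MECOM, the gene called higher, stood clear of background on 1 array with knockdown and on 0 controls, so no fold is given. It read 5.73 with siRNA-A, 5.34 with siRNA-B, 4.88 with control siRNA-1 and 5.07 with control siRNA-2. Its call was lost in 11 of 11 alternative settings. The stem cell surface marker list had 0 calls among 5 measured genes and 0 probes with an unadjusted p under 0.05 in limma, with FLT3 at the smallest p (0.18, 95% confidence interval -0.07 to 0.43). KIT, PROM1 and THY1 had no spot with a weight above 0 on all arrays.

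The label THP1 was checked against markers. All 9 measured monocytic markers (CD33, CD4, ITGAM, ITGAX, CSF1R, SPI1, CD14, FCER1G and TYROBP) were well above background on every array. Their summed intensities were 64513, 77504, 76258 and 70762 in the order siRNA-A, siRNA-B, control siRNA-1 and control siRNA-2. T cell markers (5 of 5) and B cell markers (4 of 5) also had at least 1 spot well above background on every array, so that this criterion does not separate lineages here. The summed intensities were 377, 348.5, 349.5 and 353.5 for T cell markers and 2245, 2402, 2276 and 2364 for B cell markers, in that order. Levels of different probes are not comparable, so each sum is read across the arrays only and does not bear on the label. In limma 0 genes of these 2 lists were called, and 0 of their probes had an unadjusted p under 0.05. The smallest p belonged to CD3G (0.23, 95% confidence interval -0.02 to 0.48), a chain of the T cell receptor complex, and to PAX5 (-0.20, -0.52 to 0.13, or -0.02 when siRNA-A was left out), the B cell commitment factor. The erythroid marker list had 0 calls among 5 measured genes. Of its 5 probes, 2 had an unadjusted p under 0.05 in limma, compared with 8.06% of all probes, and 2 were higher on both knockdown arrays, compared with 15.2%. HBB, the beta chain of hemoglobin, had the smallest p. It read 5.44 with siRNA-A, 5.68 with siRNA-B, 5.16 with control siRNA-1 and 5.13 with control siRNA-2, and passed the threshold after background subtraction, scaled or not. Its 3 analysed spots were all well above background on 0 arrays, so no fold is given, while at least 1 of its 10 spots was so on 2 arrays. The part of these markers in the differences was not tested.

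**Figure D5:**
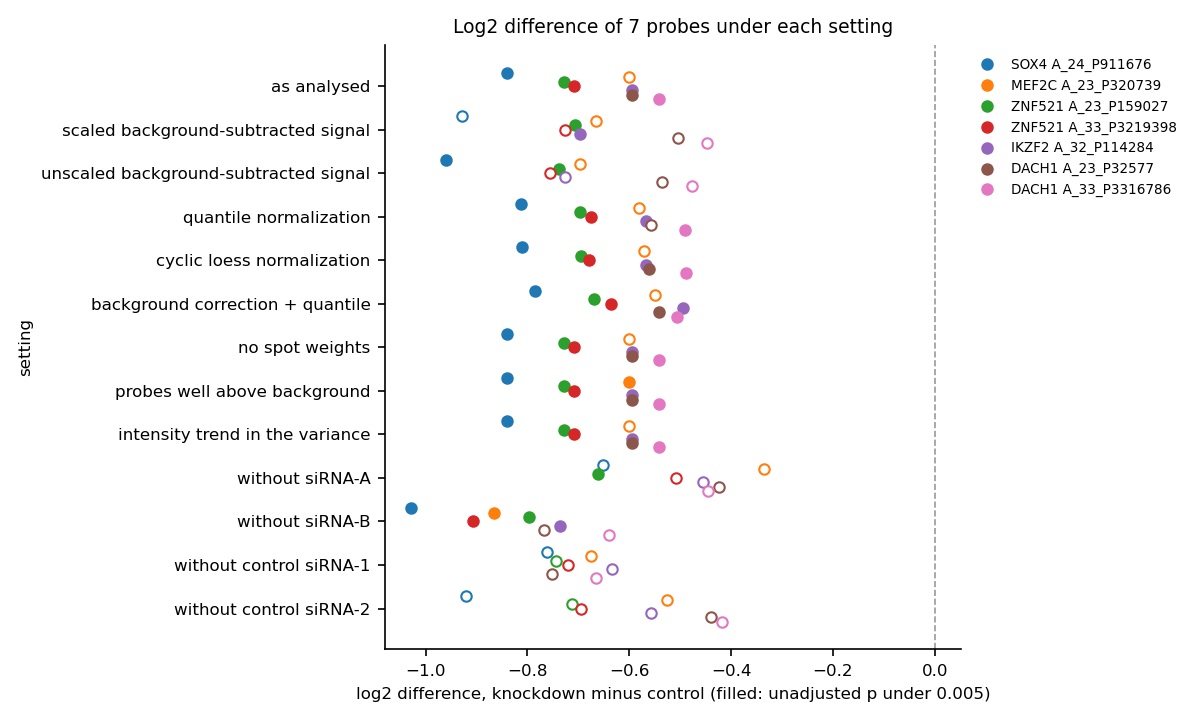
Log2 difference between knockdown and control (x axis) of 7 probes of SOX4, MEF2C, ZNF521, IKZF2 and DACH1 in the analysis as reported and in 12 alternative settings (y axis), filled where the unadjusted p in limma was under 0.005 and open otherwise. All values lie below 0, from -1.03 for SOX4 without siRNA-B to -0.34 for MEF2C without siRNA-A, and 0 points are filled without either control array.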

How the data were processed

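The arrays were run at IMGM Laboratories, and their spots were quantified with Agilent Feature Extraction 10.5.1.1. The deposited spot intensity equals the median pixel signal and is not background-subtracted. Its log2 was averaged over identical spots with weight above 0, without normalization between arrays. Then limma 3.58.1 in R 4.3.3 was fitted to all 26219 probes with spot weights and compared knockdown with control. The limma pipeline was tested on simulated data. Control probes and spots with weight 0 on any array were left out, and no column was omitted. The alternatives were the background-subtracted signal, scaled or not, quantile, cyclic loess and normexp normalization, a fit that ignores spot weights, the removal of dim probes before the fit, a prior variance that follows intensity, and leaving out each array in turn. A probe was named if it belongs to the 10 genes, MLL or MLLT3, and in each of 18 gene lists every called gene was named, or the gene with the smallest p where none was called, together with the 5 probes nearest in pattern to the called probe with the largest fall. The members and lists were chosen with earlier results of these data known. Figures were drawn with Python 3.11.15 and matplotlib 3.10.9.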

Additional observations from a re-analysis of the deposited data

Results flagged for a closer look

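In 4 probes siRNA-A and siRNA-B lay on opposite sides of both control arrays. The log2 difference, siRNA-A minus siRNA-B, was -0.42 for LMO2 A_23_P53126, -0.34 for RUNX1 A_24_P34155, 0.11 for RUNX1 A_33_P3211804 and -0.029 for MYB A_33_P3311795. Each siRNA has 1 array, and the difference was not tested.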

How the results depend on the processing

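All 6 called probes of the 10 genes stayed below control in all 12 alternative settings. The 6 calls became 3 after background subtraction with scaling and 3 without it (each time 2 of the 6 and the IKZF2 probe A_33_P3842551, not clear of background after knockdown), 0 at an adjusted p under 0.05 in limma (7 at an unadjusted p under 0.05), and 0 to 5 without each array in turn. The 4 genes with a call became 2 with the scaled signal and 0 to 4 without each array. The 11 probes with groups that did not overlap became 12 to 17 without each array, a count that leaving out an array can only keep or raise. Over all probes, 345 calls became 226 with the scaled signal, 31 at an adjusted and 2112 at an unadjusted p under 0.05, and 78 to 242 without each array. The median of the 10 genes ranged from -0.45 to -0.17 without each array and was -0.22 with the mean over each gene's probes.
Directions turned in probes that were not called. With the scaled signal MYB A_23_P31073 was at 0.016, RUNX1 A_24_P34155 at 0.021 and MLL A_33_P3390576 at -0.031, the last at -0.062 unscaled. After quantile normalization MYB A_23_P31073 was at 0.099 and LMO2 at 0.037, after loess MYB A_23_P31073 at 0.084, LMO2 at 0.029 and RUNX1 A_33_P3211804 at 0.0076, and after normexp MYB A_23_P31073 at 0.076, LMO2 at 0.030, RUNX1 A_33_P3211804 at 0.012 and MLL A_33_P3307307 at 0.0056. Without each array in turn the ranges were -0.061 to 0.018 for MYB A_23_P31073, -0.012 to 0.017 for MYB A_33_P3311795, -0.18 to 0.21 for MYC, -0.26 to 0.17 for LMO2, -0.23 to 0.0042 for GFI1, -0.21 to 0.13 for RUNX1 A_24_P34155, -0.0033 to 0.16 for RUNX1 A_24_P96403 and -0.096 to 0.017 for RUNX1 A_33_P3211804. They were -0.068 to 0.014 for MLL A_33_P3307307, -0.00067 to 0.097 for MLL A_33_P3390576, -0.22 to 0.047 for MLL A_24_P136402 and -0.70 to 0.0020 for SIX5. The cause was not tested. The part of signal over background in the differences of dim probes was not tested. A fit on single spots with both criteria of the methods called 7 probes of the 10 genes, the 6 and MEF2C.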

Other observations

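Transcription factors of the monocyte lineage had 2 of 13 measured genes called higher and 0 called lower, with a median log2 difference of 0.14, where 0.709% of all gene names had a probe called higher. EGR2, a zinc finger factor of macrophage differentiation, read 8.79 with siRNA-A, 8.93 with siRNA-B, 7.77 with control siRNA-1 and 8.32 with control siRNA-2 (0.81, adjusted p = 0.229 in limma). Both knockdown arrays were higher, and the call was lost without siRNA-A (0.88), without siRNA-B (0.74), without control siRNA-1 (0.54) and after background subtraction (0.93 scaled, 0.90 unscaled). VDR, the vitamin D receptor, read 11.02, 11.08, 10.55 and 10.49 in the same order (0.53, adjusted p = 0.222 in limma), and leaving out any single array (0.50 to 0.56) or subtracting the background (0.55 scaled, 0.52 unscaled) ended its call. Of 14 probes in the list, 7 were higher on both knockdown arrays than on both control arrays, compared with 15.2% of all probes.

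Of 9 measured monocytic markers 1 was called, CD14, the lipopolysaccharide coreceptor of monocytes, where 0.709% of all gene names had a probe called higher. It read 8.39 with siRNA-A, 8.71 with siRNA-B, 7.52 with control siRNA-1 and 7.47 with control siRNA-2 (1.05, standard error 0.13, adjusted p = 0.0355 in limma), higher on both knockdown arrays. Its call was lost without control siRNA-2 (1.03). In 9 of 12 alternative settings, background subtraction, quantile, loess and normexp normalization and the loss of any single array, 0 probes had an adjusted p under 0.05 in limma, CD14 included. The median difference of the marker list was -0.03.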
